A study of Mus musculus with 12 samples.

Results

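Messenger RNA of the interleukin-12 (IL-12) cytokine family, of IL-10 and of the IL-12 receptor was followed in conventional dendritic cells (cDC) of the mouse spleen. The genes were taken by name, with earlier results of these data known: Il12a, Il12b, Il23a, Il27, Ebi3, Il12rb1, Il12rb2 and Il10. They are 8 of the 27179 genes of the deposited count table, and each matched 1 Entrez identifier. RNA sequencing covered 12 libraries in 4 groups of 3. The groups were type 1 cells (cDC1) labelled zfp366-/- (cDC1 KO), cDC1 labelled zfp366+/+ (cDC1 WT), type 2 cells (cDC2) labelled zfp366-/- (cDC2 KO) and cDC2 labelled zfp366+/+ (cDC2 WT). The product of Zfp366 is DC-SCRIPT, a nuclear zinc finger protein found in dendritic cells, and the comparison asks what its loss does to each subset. All mice were female C57/BL6, and the labels name no stimulus, no Cre driver and no age. Each library came from a pool of mice: 3 KO and 3 WT pools each gave 1 cDC1 and 1 cDC2 library, so n = 3 for every mean. A p-value for KO against WT therefore measures the spread between pools. For comparisons of cDC1 with cDC2, the main test treated the libraries of a pool as independent, and a block by pool was run as an alternative.

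IL-12 family cytokines are pairs of chains that are made by separate genes and shared between cytokines. The Il12b product (p40) joins the Il12a product (p35) to make IL-12 and the Il23a product (p19) to make IL-23. The Ebi3 product joins the Il27 product (p28) to make IL-27. The IL-12 receptor needs the chains encoded by Il12rb1 and Il12rb2. The Il12rb1 chain also serves the IL-23 receptor, and T cells and NK cells are the best known cells that respond to IL-12. Dendritic cells, cDC1 above all, are a main source of IL-12 once they meet microbial products or CD40 ligand. IL-10 is an inhibitory cytokine that restrains IL-12 production.

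Total counts per library ran from 11330503 to 36761685. Levels are given as CPM, the reads of a gene over the library total after TMM scaling. Levels of different genes are compared only as RPKM, the CPM per kilobase of gene length. Zfp366 itself averaged 47.5 ± 1.85 CPM in cDC1 KO and 103 ± 44.0 CPM in cDC1 WT (SD), and its fall in the libraries labelled KO passed the test (log2 fold change -1.12, SE 0.27, adjusted p = 0.0326). In cDC2 it averaged 66.9 ± 12.9 CPM in KO and 57.4 ± 4.92 CPM in WT (log2 fold change 0.22, SE 0.27, adjusted p = 1). The labels do not say which part of the gene was deleted, so reads over the whole gene do not check the cDC2 labels, and every direction given for cDC2 KO rests on the label. The subset labels were checked against markers: 8 summed cDC1 markers, Xcr1 and Clec9a among them, had 4350 to 4770 CPM in cDC1 KO and 5170 to 6570 CPM in cDC1 WT, against 123 to 134 CPM in cDC2 KO and 49.5 to 296 CPM in cDC2 WT. Libraries with the number 1 were set against the others by 1 shift shared by all 4 groups (edgeR's quasi-likelihood test). This called 353 genes at an adjusted p below 0.05, none of them among the 7 tested here. Such a fit can miss shifts that differ between groups. Il12b had 224 CPM in replicate 1 of cDC1 WT, against 45.8 and 45.7 CPM in replicates 2 and 3. In cDC2 WT it had 2.59 CPM in replicate 1, against 9.30 and 8.38 CPM. Results are therefore also given within replicates 2 and 3 where leaving out replicate 1 changed a call or a direction.

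The promoters of Il12b and Ebi3 are printed because these ligand chains were the ones with an entry in RefSeq whose levels separated the subsets below. RefSeq's table for GRCm38.p6 held promoters for 4 of the 8 genes, and the 250 bases before the start are shown 5′ to 3′ on the gene's strand. Il12b lies on the plus strand of chromosome 11, with this promoter at chr11:44399813-44400062. Ebi3 lies on the plus strand of chromosome 17, with this promoter at chr17:55952373-55952622. Capitals mark a TATA motif (TATAAA or TATATAA) in Il12b and a match to the NF-kB consensus in Ebi3.
Il12b: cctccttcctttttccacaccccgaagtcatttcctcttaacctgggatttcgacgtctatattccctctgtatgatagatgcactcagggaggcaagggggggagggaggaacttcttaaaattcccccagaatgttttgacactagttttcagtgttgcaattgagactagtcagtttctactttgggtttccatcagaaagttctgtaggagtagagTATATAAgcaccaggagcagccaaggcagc
Ebi3: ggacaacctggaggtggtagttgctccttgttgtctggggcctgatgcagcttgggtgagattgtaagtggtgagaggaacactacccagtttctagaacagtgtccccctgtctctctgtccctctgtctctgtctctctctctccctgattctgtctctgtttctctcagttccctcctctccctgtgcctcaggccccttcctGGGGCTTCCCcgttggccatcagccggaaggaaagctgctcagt
The TATA motif of Il12b began at -30 from the start, and 13.8% of 32851 promoters of the same length held such a motif on either strand. The NF-kB match of Ebi3 began at -44, and 7.3% of promoters held one. The C/EBP motif (TTGCNNAA), the GAS element (TTCNNNGAA), the AP-1 motif (TGANTCA), the interferon-stimulated response element and the ETS-IRF element, searched on both strands, had no match in either window, and 9.6%, 7.0%, 6.7%, 3.0% and 2.3% of promoters held them. Il12b had no match to the NF-kB consensus (GGGRNNYYCC), and Ebi3 had none to the TATA motif. Only these patterns were searched, so a site that departs from them was not counted. A match or its absence describes the letters and says nothing of binding.

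Il12b, Ebi3 and Il12rb2 had the highest levels per length in all 4 groups, and Il12a had at most 2 reads in any library. Per length, Ebi3 stood first in cDC1 KO at 43.6 ± 1.11 RPKM, ahead of Il12b at 31.4 ± 3.40 RPKM, and the libraries of these genes did not overlap. In cDC1 WT, Il12b had 54.0 ± 52.9 RPKM and Ebi3 28.1 ± 4.35 RPKM, and their libraries overlapped. In cDC2 KO, Ebi3 (20.3 ± 7.30 RPKM) and Il12rb2 (13.3 ± 2.71 RPKM) overlapped, while in cDC2 WT Ebi3 (21.0 ± 3.16 RPKM) lay above Il12rb2 (9.71 ± 1.61 RPKM) in every library. Il12b came next in both cDC2 groups, at 3.26 ± 0.857 RPKM in KO and 3.46 ± 1.86 RPKM in WT. By CPM, which does not allow for length, Il12b came before Ebi3 in cDC1 KO. The remaining genes stayed below 1 RPKM on average except Il12rb1 (2.85 ± 0.168 RPKM) and Il27 (1.67 ± 0.315 RPKM), both in cDC1 KO.

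**Figure D1:**
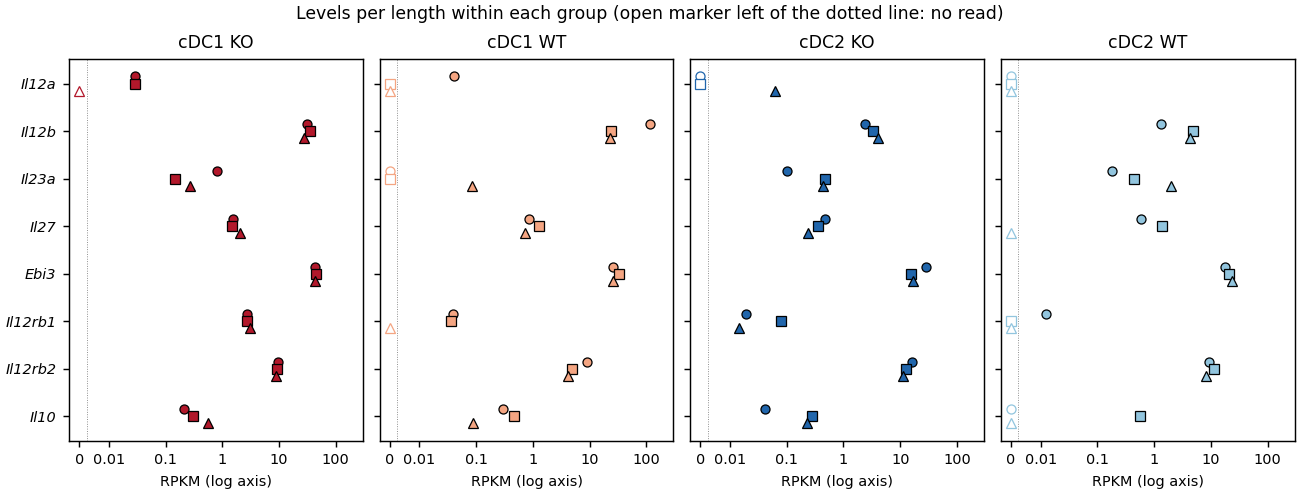
Level per length of the 8 genes in each library, in RPKM on a log axis, with 1 panel per group and a marker shape per replicate (circle 1, square 2, triangle 3); open markers left of the dotted line are libraries with no read. Il12b, Ebi3 and Il12rb2 lie above 1 RPKM in all 12 libraries, and Il12rb1 does so in the 3 cDC1 KO libraries alone.

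The first comparison asked how cDC1 changed with the loss of Zfp366. Il12rb1, the receptor chain shared by IL-12 and IL-23, rose to 8.18 ± 0.483 CPM in cDC1 KO, against 0.0707 ± 0.0613 CPM in cDC1 WT (SD, n = 3 each). Its partner Il12rb2 was already present in both groups and did not pass the test, and neither did any ligand chain or Il10. Of the 7 genes that passed the filter on low counts, 1 was called higher and 0 lower at an adjusted p below 0.05 (edgeR's quasi-likelihood test), against 5.32% of the 13415 genes tested in either direction, 3.6% higher and 1.72% lower. Il12a did not pass the filter. The filter can keep a gene for its high group alone, as it did for Il12rb1, which had at most 8 reads in any library outside cDC1 KO. Il23a, with 0, 0 and 2 reads in cDC1 WT, was kept through libraries of the other groups. These counts of calls therefore describe the genes and support nothing further.

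Il12rb1 (Entrez 16161, chromosome 8, bases 70808360 to 70823542 in GRCm38) had 196, 203 and 213 reads in cDC1 KO replicates 1, 2 and 3, which is 7.80, 8.01 and 8.72 CPM. In cDC1 WT it had 2, 2 and 0 reads, which is 0.110, 0.102 and 0 CPM. The groups were far apart, and the KO libraries varied little among themselves. The log2 fold change was 6.72 (SE 0.77, adjusted p = 0.000247). From the summed reads, 612 in KO and 4 in WT, the ratio was 113 with a 95% counting interval of 43.7 to 414. With so few reads in WT the size of the fold is loosely fixed, while the direction and the call held under all 20 alternatives, with adjusted p-values between 3.64e-13 and 0.00278.

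Cells that carry Il12rb1 in other settings were looked for beside this change. NK cell markers summed to 156 to 182 CPM in cDC1 KO and 79.3 to 99.8 CPM in cDC1 WT, nearly all of it Klrk1, a receptor gene at 161 ± 15.3 CPM in KO and 90.2 ± 10.3 CPM in WT. Klrb1c, which encodes the NK cell marker NK1.1, had 2.51, 1.78 and 2.05 CPM in cDC1 KO and 0.33, 0.051 and 0.52 CPM in cDC1 WT, with no overlap. The defining NK cell receptor gene Ncr1 was at 0 to 0.573 CPM in cDC1 KO and 0.0550 to 0.694 CPM in cDC1 WT. T cell markers summed to 12.7 to 14.0 CPM in cDC1 KO and 8.67 to 10.7 CPM in cDC1 WT. The largest part was Il7r in KO and Cd5 in WT. Il7r, the IL-7 receptor gene, was at 6.47 to 9.55 CPM in KO and 1.43 to 4.01 CPM in WT, again with no overlap. Cd5 was at 4.28 ± 0.775 CPM in KO and 5.10 ± 1.03 CPM in WT. Cd3e, a chain of the T cell receptor complex, was at 0 to 0.246 CPM in cDC1 KO and 0.110 to 0.405 CPM in cDC1 WT. None of the 5 tested genes of either list was called (log2 fold changes of 0.84 for Klrk1, 2.81 for Klrb1c and 1.67 for Il7r, adjusted p = 0.136, 0.186 and 0.133), and no gene of either list was at 0 in a whole group. The cDC2 markers moved too: 6 of 8 rose in cDC1 KO, where 3.6% of all tested genes rose. The 8 summed to 762 to 797 CPM, against 318 to 518 CPM in cDC1 WT. Most of the WT sum was Clec12a, at 303 ± 16.4 CPM in cDC1 KO and 364 ± 115 CPM in cDC1 WT. Clec12a was called higher in cDC1 than in cDC2 in both genotypes, and the sum rose by a smaller fold than the 6 called genes. The 8 monocyte markers summed to 1420 to 1610 CPM in cDC1 KO and 860 to 917 CPM in cDC1 WT, with 2 called higher (Ccr2 and Ms4a4c) and 1 lower. The part of these markers in the Il12rb1 result was not tested; the cDC2 libraries themselves held 11 Il12rb1 reads in KO and 1 in WT. In bulk RNA a change in the number of cells that carry a transcript and a change in RNA per cell cannot be told apart.

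Il12rb2 (Entrez 16162, chromosome 6, bases 67285986 to 67376293), the signalling chain of the IL-12 receptor, had 28.0, 27.0 and 26.7 CPM in cDC1 KO and 26.4, 14.6 and 12.2 CPM in cDC1 WT. Every KO library lay above every WT library; WT replicate 1 lay close to the KO libraries. The log2 fold change was 0.62 (SE 0.28, adjusted p = 0.259). Within replicates 2 and 3 it was 0.98 and passed (adjusted p = 0.000967), in a fit that called 6438 genes in cDC1. It also passed without cDC1 WT replicate 1, where 3052 genes were called, against 714 with all 12 libraries. Set against its partner, the Il12rb2 level per length was 2.98 to 3.50 times that of Il12rb1 in the cDC1 KO libraries. In cDC1 WT that ratio was 139 and 234 in the libraries with an Il12rb1 read, and replicate 3 had none. In GENCODE M21, 1519 of the 3794 exonic bases of Il12rb2 are shared with Serbp1 on the opposite strand, which averaged 505 ± 13.7 CPM in cDC1 KO and 442 ± 17.3 CPM in cDC1 WT. Whether the counting used strand is not given in the sources used here, and the counted gene model of Il12rb2 is 2947 bases long, so it was not established how much of that stretch was counted. Reads of these genes cannot be told apart over whatever part was counted, in this or any other comparison of Il12rb2.

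Among the ligand chains, Il12b (Entrez 16160, chromosome 11, bases 44400063 to 44414677), whose promoter is printed above, had 60.8, 68.0 and 54.8 CPM in cDC1 KO and 224, 45.8 and 45.7 CPM in cDC1 WT. A single library, WT replicate 1, was high, and the KO libraries lay between it and the other WT libraries. The log2 fold change was -0.78 (SE 0.58, adjusted p = 0.505). Without cDC1 WT replicate 1 it turned to 0.42 (adjusted p = 0.476), and within replicates 2 and 3 to 0.40 (adjusted p = 0.0510). In WT replicate 1 the 16 markers of mature dendritic cells summed to 6410 CPM, against 4120 and 4340 CPM in WT replicates 2 and 3 and 5140 to 6670 CPM in cDC1 KO. The largest part was Cd83, at 2960 CPM in WT replicate 1 against 1490 and 1480 CPM in WT replicates 2 and 3. The markers did not move together: Cd86 (380 against 739 and 903 CPM) and Cd40 (71.3 against 110 and 124 CPM) were among those lower in WT replicate 1. Of the 16, 2 (Ccl17 and Marcksl1) were called higher in KO and 0 lower. Cd86, at 314 ± 16.2 CPM in KO and 674 ± 267 CPM in WT, was not called. The part of these markers in the Il12b result was not tested.

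**Figure D2:**
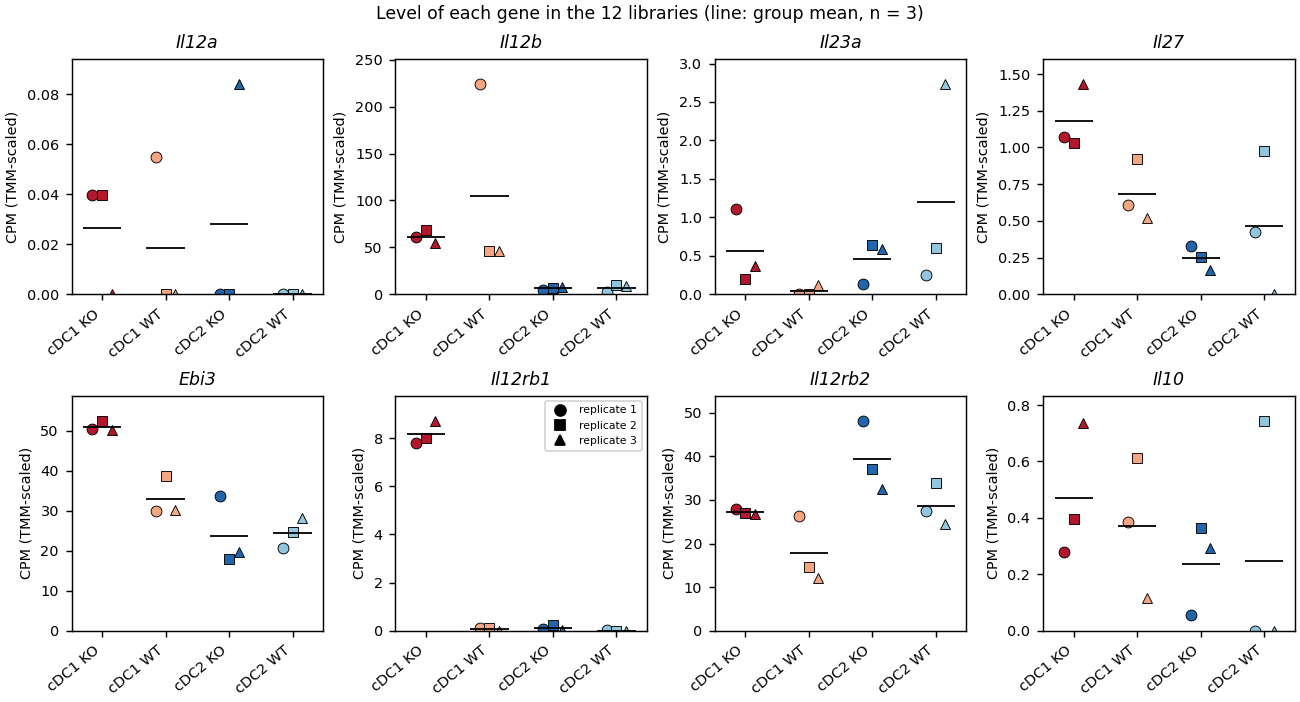
CPM of each gene in the 12 libraries, 1 panel per gene with its own axis from 0; markers are replicates 1, 2 and 3 and the line is the group mean of 3 libraries. Il12rb1 is near 8 CPM in the cDC1 KO libraries and below 0.3 CPM elsewhere, and the cDC1 WT mean of Il12b is set by replicate 1 at 224 CPM.

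Il12a (Entrez 16159, chromosome 3, bases 68690644 to 68698550), the p35 chain that limits IL-12 in many cells, had 1, 1 and 0 reads in cDC1 KO and 1, 0 and 0 reads in cDC1 WT. It had 0, 0 and 2 reads in cDC2 KO and no read in any cDC2 WT library, where a count of 0 allows up to 0.0492 CPM over the group. Messenger RNA of the p35 chain was thus not detectable above a few reads at this depth, and no comparison was made. Such limits and intervals cover counting error alone, because PCR copies of a molecule were not told apart.

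Il23a (Entrez 83430, chromosome 10, bases 128296140 to 128298084), the p19 chain of IL-23, had 28, 5 and 9 reads in cDC1 KO and 0, 0 and 2 reads in cDC1 WT. The groups did not overlap, at 0.560 ± 0.487 CPM in KO and 0.0386 ± 0.0668 CPM in WT, but the KO libraries differed among themselves. The log2 fold change was 3.75 (SE 1.39, adjusted p = 0.163), and the ratio of summed reads was 15.4 with a counting interval of 4.02 to 132. The difference did not pass at this depth.

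Ebi3 (Entrez 50498, chromosome 17, bases 55952623 to 55957022), the chain IL-27 shares with IL-35, had 50.5, 52.5 and 50.2 CPM in cDC1 KO and 29.9, 38.8 and 30.2 CPM in cDC1 WT. All KO libraries were higher than all WT libraries. The log2 fold change of 0.63 (SE 0.25) did not pass (adjusted p = 0.189). Within replicates 2 and 3 it was 0.55 and passed (adjusted p = 0.0105), in the fit that called 6438 genes in cDC1. Il27 (Entrez 246779, chromosome 7, bases 126589009 to 126595035), which encodes the p28 chain, had 27, 26 and 35 reads in cDC1 KO and 11, 18 and 9 reads in cDC1 WT. Its groups did not overlap either, at 1.18 ± 0.222 CPM in KO and 0.681 ± 0.210 CPM in WT (log2 fold change 0.78, SE 0.76, adjusted p = 0.626). The Ebi3 level per length was 21.1 to 30.8 times that of Il27 in cDC1 KO and 25.5 to 34.9 times in cDC1 WT, ranges that overlap. In GENCODE M21, whose gene models differ in length from those counted, Ebi3 shares 270 of its 1154 exonic bases (23.4%) with the opposite-strand gene Gm16712, at 2.14 ± 0.370 CPM in cDC1 KO and 0.854 ± 0.501 CPM in cDC1 WT, and Il27 shares 103 of 1021 (10.1%) with Apobr, at 158 ± 36.1 CPM in KO and 209 ± 52.0 CPM in WT.

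Il10 (Entrez 16153, chromosome 1, bases 131019845 to 131024970) had 7, 10 and 18 reads in cDC1 KO and 7, 12 and 2 reads in cDC1 WT. The groups overlapped, at 0.470 ± 0.238 CPM in KO and 0.371 ± 0.249 CPM in WT. The log2 fold change was 0.32 (SE 1.16, adjusted p = 0.916).

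Counted by overlap alone, 5 of the 7 tested genes (Il23a, Il27, Ebi3, Il12rb1 and Il12rb2) had every cDC1 KO library above every cDC1 WT library, and none had the reverse. Over all genes tested, 15.5% had KO above WT in this way and 11.4% had WT above KO. Because the filter kept Il12rb1 for cDC1 KO alone, this count too describes the genes and supports nothing further.

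**Figure D3:**
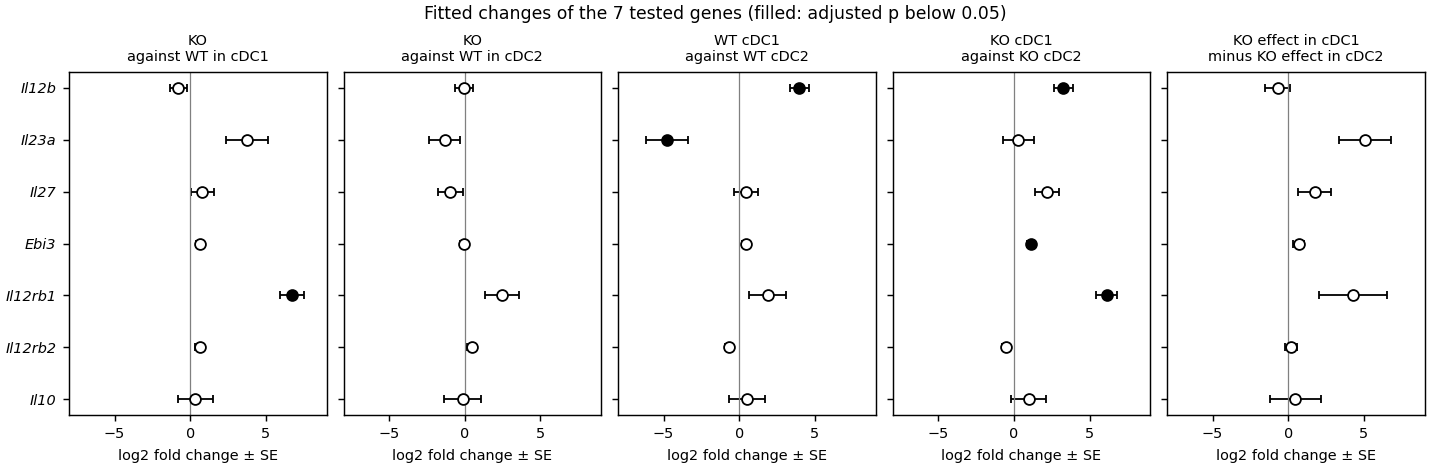
Log2 fold change ± SE of the 7 tested genes in the 5 comparisons (n = 3 libraries per group); filled points have an adjusted p below 0.05. Il12rb1 is filled in KO against WT cDC1 and in KO cDC1 against KO cDC2, and no point is filled for KO against WT in cDC2 or for the difference of the KO effects.

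The second comparison asked the same in cDC2. The group means of Il12b, Ebi3 and Il10 lay close together in cDC2 KO and cDC2 WT, although their libraries spread widely. The Il10 mean in cDC2 WT came from replicate 2 alone, with 16 reads. Il12rb2 was somewhat higher in KO, and Il12rb1 stayed at a few reads. Of the 7 tested genes 0 were called in edgeR's quasi-likelihood test, and the share over all genes was 0%. DESeq2 also called 0 genes, and 271 genes (2.02%) had an unadjusted p below 0.05. Among the 7, Il12rb1 alone was below that unadjusted value.

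Il12rb1 had 2, 8 and 1 reads in cDC2 KO and 1, 0 and 0 reads in cDC2 WT. The libraries did not overlap, yet the counts were so small that the ratio of 6.99 had a counting interval of 1.02 to 301 (log2 fold change 2.46, SE 1.10, adjusted p = 1). Across all tested genes, 3.33% had cDC2 KO above WT without overlap. Il12rb2 had 48.1, 37.1 and 32.6 CPM in cDC2 KO and 27.5, 33.8 and 24.5 CPM in cDC2 WT. KO replicate 1 was the highest of these and KO replicate 3 lay below WT replicate 2, so the groups overlapped (log2 fold change 0.46, SE 0.28, adjusted p = 1). Serbp1, the opposite-strand gene, averaged 389 ± 54.0 CPM in cDC2 KO and 341 ± 75.4 CPM in cDC2 WT.

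Il12b had 4.64, 6.47 and 7.97 CPM in cDC2 KO and 2.59, 9.30 and 8.38 CPM in cDC2 WT. The KO libraries lay inside the range of the WT libraries (log2 fold change -0.08, SE 0.60, adjusted p = 1). Ebi3 had 33.6, 18.0 and 19.7 CPM in cDC2 KO and 20.8, 24.8 and 28.1 CPM in cDC2 WT. Here KO replicate 1 was above all WT libraries and the other KO libraries below them (log2 fold change -0.04, SE 0.25, adjusted p = 1).

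The low genes varied most from library to library. Il23a had 5, 23 and 14 reads in cDC2 KO and 7, 13 and 30 reads in cDC2 WT, and its WT mean of 1.19 ± 1.34 CPM was set by replicate 3 at 2.73 CPM, against a KO mean of 0.456 ± 0.278 CPM (log2 fold change -1.32, SE 1.02, adjusted p = 1). Il27 had 12, 9 and 4 reads in cDC2 KO and 12, 21 and 0 reads in cDC2 WT (log2 fold change -0.95, SE 0.81, adjusted p = 1). Il10 had 2, 13 and 7 reads in cDC2 KO and 0, 16 and 0 reads in cDC2 WT (log2 fold change -0.15, SE 1.21, adjusted p = 1). For each of these 3 genes the groups overlapped, and the low counts gave wide standard errors.

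**Figure D4:**
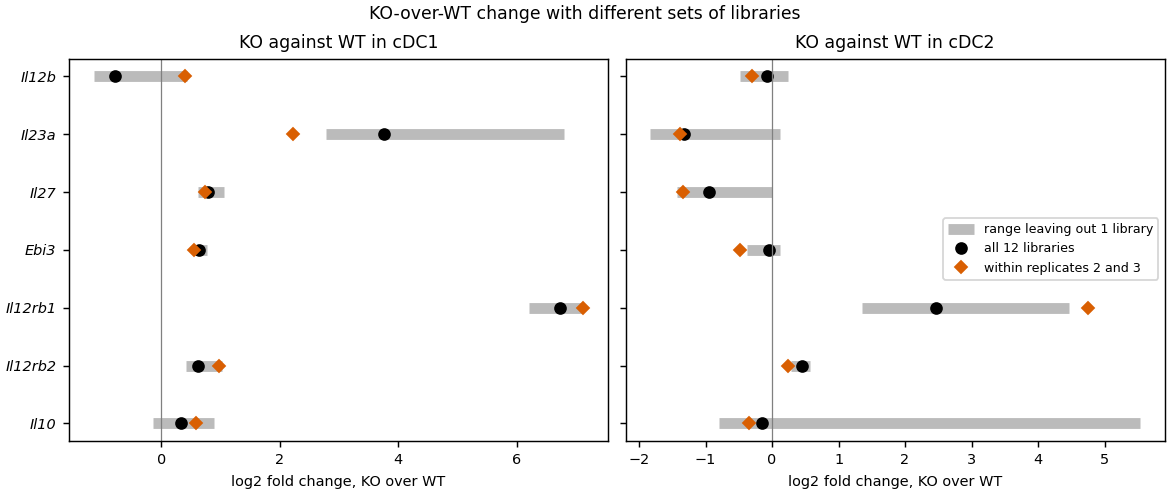
KO-over-WT log2 fold change of the 7 tested genes in cDC1 (left) and cDC2 (right) with all 12 libraries (black), within replicates 2 and 3 (orange) and over the 12 fits that each leave out 1 library (grey range). Il12rb1 in cDC1 stays between 6.21 and 7.13 whichever library is left out, whereas Il12b in cDC1 runs from -1.14 to 0.42.

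The third comparison set cDC1 against cDC2 in WT mice. Il12b, the p40 chain, was higher in cDC1 WT, and Il23a, the p19 chain that p40 joins to make IL-23, was lower. Of the 7 tested genes 1 was called higher and 1 lower in cDC1 WT, against 21.2% of all tested genes called in either direction, 10.4% higher and 10.9% lower. By overlap, Il12b and Ebi3 lay above cDC2 WT in every cDC1 WT library and Il23a below, where 16.5% of all genes lay above and 16.2% below. Il12b averaged 105 ± 103 CPM in cDC1 WT and 6.76 ± 3.63 CPM in cDC2 WT, with the lowest cDC1 library at 45.7 CPM and the highest cDC2 library at 9.30 CPM (log2 fold change 3.98, SE 0.66, adjusted p = 0.000819). The call held under every alternative run, and within replicates 2 and 3 the change was smaller, at 2.37 (adjusted p = 5.07e-07). The cDC2 WT library with the lowest Il12b, replicate 1 at 2.59 CPM, was also the one with the highest summed cDC1 markers (296 CPM).

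Il23a had 2 reads in the cDC1 WT libraries together and 50 in the cDC2 WT libraries, a ratio of 0.0443 with a counting interval of 0.00522 to 0.169 (log2 fold change -4.77, SE 1.39, adjusted p = 0.0268). This call was lost without cDC1 WT replicate 1 (adjusted p = 0.0727), without cDC1 WT replicate 2 (0.1) and without cDC2 WT replicate 3 (0.105), the library that held 30 of the 50 reads. Ebi3 was above cDC2 WT in all cDC1 WT libraries without passing (log2 fold change 0.43, SE 0.25, adjusted p = 0.261). Il12rb2 leaned the other way (log2 fold change -0.69, SE 0.28, adjusted p = 0.105), and within replicates 2 and 3 it was -1.12 and passed (adjusted p = 0.000379). That fit called 6391 genes between the WT subsets, against 2846 with all 12 libraries. Il12rb1, Il27 and Il10 overlapped between the subsets, with log2 fold changes of 1.87, 0.47 and 0.51 and adjusted p-values of 0.328, 0.726 and 0.814.

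The same comparison in KO mice asked whether the subsets still differed. Il12b, Ebi3 and Il12rb1 were all higher in cDC1 KO than in cDC2 KO, and no gene was called lower, which is 3 of the 7 tested genes against 16.9% of all tested genes called in either direction, 8.45% higher and 8.43% lower. By overlap, 4 genes (Il12b, Il27, Ebi3 and Il12rb1) lay above cDC2 KO in every cDC1 KO library and Il12rb2 below, where 25.1% of all genes lay above and 22.7% below. Because the filter kept Il12rb1 for cDC1 KO alone, these counts describe the genes and support nothing further. Il12b averaged 61.2 ± 6.63 CPM in cDC1 KO and 6.36 ± 1.67 CPM in cDC2 KO (log2 fold change 3.27, SE 0.63, adjusted p = 0.00370). Ebi3 averaged 51.1 ± 1.30 CPM in cDC1 KO and 23.8 ± 8.55 CPM in cDC2 KO (log2 fold change 1.10, SE 0.25, adjusted p = 0.0101); its call was lost without cDC2 KO replicate 2 (adjusted p = 0.0567) or 3 (0.0580). Il12rb1 had 612 reads in the cDC1 KO libraries together and 11 in the cDC2 KO libraries, a ratio of 71.3 with a counting interval of 39.6 to 144 (log2 fold change 6.13, SE 0.70, adjusted p = 7.9e-05).

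The other genes of the family did not pass between the KO subsets. Il27 averaged 1.18 ± 0.222 CPM in cDC1 KO and 0.250 ± 0.0807 CPM in cDC2 KO, with no overlap (log2 fold change 2.20, SE 0.80, adjusted p = 0.0789). Il12rb2 was lower in every cDC1 KO library than in every cDC2 KO library, at 26.7 to 28.0 CPM in cDC1 KO and 32.6 to 48.1 CPM in cDC2 KO (log2 fold change -0.53, SE 0.28, adjusted p = 0.218). Il23a, at 42 reads in each group, and Il10 overlapped (log2 fold changes 0.30 and 0.98, adjusted p = 0.865 and 0.600). The comparisons between subsets share their libraries with the comparisons between genotypes, so the values are given side by side and not as independent results.

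The difference between the KO effect in cDC1 and the KO effect in cDC2 was tested directly. Of the 7 tested genes 0 were called in edgeR's quasi-likelihood test, against 1.42% of all tested genes, so no gene of the family was shown to respond differently in the subsets. Over all genes 1282 (9.56%) had an unadjusted p below 0.05, and DESeq2 called 480. Il23a came nearest, with a difference of 5.07 on the log2 scale (SE 1.74, unadjusted p = 0.0123, adjusted p = 0.262). Il12rb1 had 4.26 (SE 2.22, adjusted p = 0.628), with 12 reads in all cDC2 libraries together and 4 in cDC1 WT. Il27 had 1.73 (SE 1.11, adjusted p = 0.743), Ebi3 0.68 (SE 0.35, adjusted p = 0.628), Il12b -0.71 (SE 0.83, adjusted p = 0.898), Il12rb2 0.16 (SE 0.40, adjusted p = 0.957) and Il10 0.47 (SE 1.68, adjusted p = 0.974). Within replicates 2 and 3 the differences of Ebi3 (1.04, adjusted p = 0.00308), Il12b (0.71, adjusted p = 0.0340) and Il12rb2 (0.73, adjusted p = 0.0384) passed, in a fit that called 38.3% of all genes.

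Genes with the most similar profiles were found by the root mean square (RMS) difference of centred log2 CPM over the 12 libraries, among 10407 genes. Nearest to Il12rb1 were Efhd1, Col4a2, which encodes a collagen chain, and Sv2b, a synaptic vesicle protein gene, at 0.946, 1.28 and 1.44, where Il12rb1 itself varied by an RMS of 2.95. Efhd1 had 11.9 ± 2.01 CPM in cDC1 KO and 0.443 ± 0.247 CPM in cDC1 WT, with 0.333 ± 0.107 CPM in cDC2 KO and 0.0973 ± 0.130 CPM in cDC2 WT. Among the nearest to Ebi3 were Sp110 and Lgals3bp, at 0.182 and 0.184, where Ebi3 varied by 0.514. Nearest to Il12b were Arhgap31, Fmnl2 and Alms1, at 0.447, 0.531 and 0.558 (own RMS 1.89); Arhgap31 was also highest in cDC1 WT replicate 1, at 70.6 CPM against 24.7 and 19.1 CPM in the other cDC1 WT libraries. Nearest to Il23a were Nlrc4, an inflammasome gene, Tnfsf10 and Cd69, at 0.922, 0.962 and 0.979 (own RMS 1.72). The profiles share libraries and groups, so likeness is a description only.

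Other genes of the pathway were read from 4 lists. The lists were chosen with earlier results of these data known, so their counts and medians describe the lists and support nothing further. In cDC1 the lists of receptor chains and JAK-STAT genes, of cooperating cytokines, and of regulators of Il12b and of Il10 each had 2 to 5 genes that rose in KO by edgeR's adjusted p and none that fell, while DESeq2 also called 2 cooperating cytokines, Il6 and Il15, lower. Of all tested genes 3.6% rose and 1.72% fell. In cDC2 0 genes of any list were called by edgeR's adjusted p, and DESeq2 called 0 as well. The cDC2 and monocyte markers given above moved in the same libraries, and Irf4 stands both among the cDC2 markers and in the list of Il12b regulators. Their part in these results was not tested.

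Of 18 tested receptor chain and JAK-STAT genes, 4 rose in cDC1 KO, and the median log2 fold change of the list was 0.48 against -0.000775 over all genes. Stat4, the transcription factor that carries the IL-12 signal, had 27.1, 24.8 and 26.9 CPM in cDC1 KO and 3.63, 2.40 and 2.08 CPM in cDC1 WT. Every KO library was far above every WT library (log2 fold change 3.28, SE 0.26, adjusted p = 3.24e-05). The cDC1 KO level lay inside the cDC2 WT range of 22.4 to 34.7 CPM and below the cDC2 KO mean of 40.6 ± 1.45 CPM. Socs3, an inhibitor of cytokine receptor signalling, rose by 2.29 on the log2 scale (SE 0.30, adjusted p = 0.000614). Il6st, the gp130 chain of the IL-27 and IL-6 receptors, had 169 ± 14.0 CPM in cDC1 KO and 60.0 ± 27.7 CPM in cDC1 WT (adjusted p = 0.0171). Ptpn6, which encodes the phosphatase SHP-1, had 379 ± 40.1 CPM in cDC1 KO and 149 ± 21.9 CPM in cDC1 WT (adjusted p = 0.00134). Of the chains of other family receptors, Il27ra had 0.801 ± 0.0597 CPM in cDC1 KO and 1.19 ± 0.462 CPM in cDC1 WT (-0.56, SE 0.41, adjusted p = 0.497), and Il23r, which did not pass the filter on low counts, had 9 reads in cDC1 KO and 8 in cDC1 WT. In cDC2, Il10ra (-0.60, SE 0.21), Socs3 (-0.63, SE 0.28), Stat4 (0.48, SE 0.23) and Il10rb (-0.27, SE 0.18) had the smallest p-values of the list, each with an adjusted p of 1.

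Of 16 tested cooperating cytokine genes, 2 rose in cDC1 KO, with a list median of 0.20. Tnf, the inflammatory cytokine, had 567, 324 and 335 CPM in cDC1 KO and 56.1, 53.5 and 48.6 CPM in cDC1 WT (2.95, SE 0.51, adjusted p = 0.00416). Tgfb1, a suppressive cytokine that helps Il6 drive Th17 cells, had 441 ± 11.4 CPM in KO and 220 ± 31.5 CPM in WT (1.01, SE 0.21, adjusted p = 0.0136). Il6 and Il15, a growth factor of NK cells and memory T cells, did not pass in edgeR: Il6 had 3.06 ± 0.776 CPM in cDC1 KO and 5.87 ± 0.571 CPM in cDC1 WT (-0.94, adjusted p = 0.0855), and Il15 had 17.8 ± 2.84 CPM in cDC1 KO and 28.2 ± 4.01 CPM in cDC1 WT (-0.66, adjusted p = 0.135). In cDC2 the smallest p-values belonged to Il15ra (-0.70), Tgfb1 (0.43), Cd40 (-0.40) and Il6 (-0.43), each with an adjusted p of 1.

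Of 21 regulators of Il12b and its relatives, 5 rose in cDC1 KO, with a list median of 0.45, although Il12b itself was not called. Irf4, a transcription factor of cDC2, had 87.0 ± 12.9 CPM in cDC1 KO and 13.8 ± 4.28 CPM in cDC1 WT (2.66, SE 0.26, adjusted p = 0.000101). Nfkbiz, an inducible nuclear partner of NF-kB, had 538 ± 226 CPM in KO and 44.6 ± 33.6 CPM in WT (3.59, SE 0.51, adjusted p = 0.00111). Bcl3, another such partner, rose by 1.46 (SE 0.20, adjusted p = 0.000908), and Irf1, an interferon-induced transcription factor that acts on Il12a, by 0.89 (SE 0.22, adjusted p = 0.0329). The fifth was Nfkb1 (1.01, SE 0.26, adjusted p = 0.0374), named after its value was seen. Irf8, which Il12b transcription depends on, had 1310 ± 95.9 CPM in cDC1 KO and 2130 ± 173 CPM in cDC1 WT, without passing (-0.71, SE 0.45, adjusted p = 0.435). Every KO library (1250 to 1420 CPM) lay below every WT library (1940 to 2280 CPM), as did 11.4% of all tested genes. In cDC2 the smallest p-values were those of Irf1 (-0.59), Rela (0.61), Nfkb2 (0.45) and Irf7 (-0.37), each with an adjusted p of 1.

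Of 18 regulators of Il10, 4 rose in cDC1 KO, with a list median of 0.44, while Il10 had 35 reads in cDC1 KO and 21 in cDC1 WT. Prdm1, which encodes Blimp-1, had 29.0, 27.6 and 23.1 CPM in cDC1 KO and 2.25, 0.663 and 0.347 CPM in cDC1 WT (4.60, SE 0.55, adjusted p = 0.000360). In cDC2 it had 7.18 ± 1.48 CPM in KO and 5.48 ± 1.93 CPM in WT, so the cDC1 KO level was above both. Hlx, a homeobox gene, rose by 1.68 (SE 0.26, adjusted p = 0.00221), Map3k8, the kinase Tpl2, by 1.60 (SE 0.26, adjusted p = 0.00269), and Bhlhe40, a repressor of Il10, by 2.05 (SE 0.50, adjusted p = 0.0313). In cDC2 the smallest p-values included those of Dusp1 (-0.27), Rps6ka4 (0.22) and Prdm1 (0.37), each with an adjusted p of 1. Of the family genes and these 4 lists, the direct test of the difference between the KO effects called 7 genes, all in the lists: Stat4, Socs3, Irf1, Irf4, Nfkbiz, Bcl3 and Prdm1, each higher, where 1.42% of all tested genes were called. The settings in which both Irf1 and Bcl3 lost this call included the replicate block, the replicate block by mouse pool, and leaving out any 1 cDC1 KO library. Bcl3 also lost it with RLE scaling and with no filter on low counts.

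**Figure D5:**
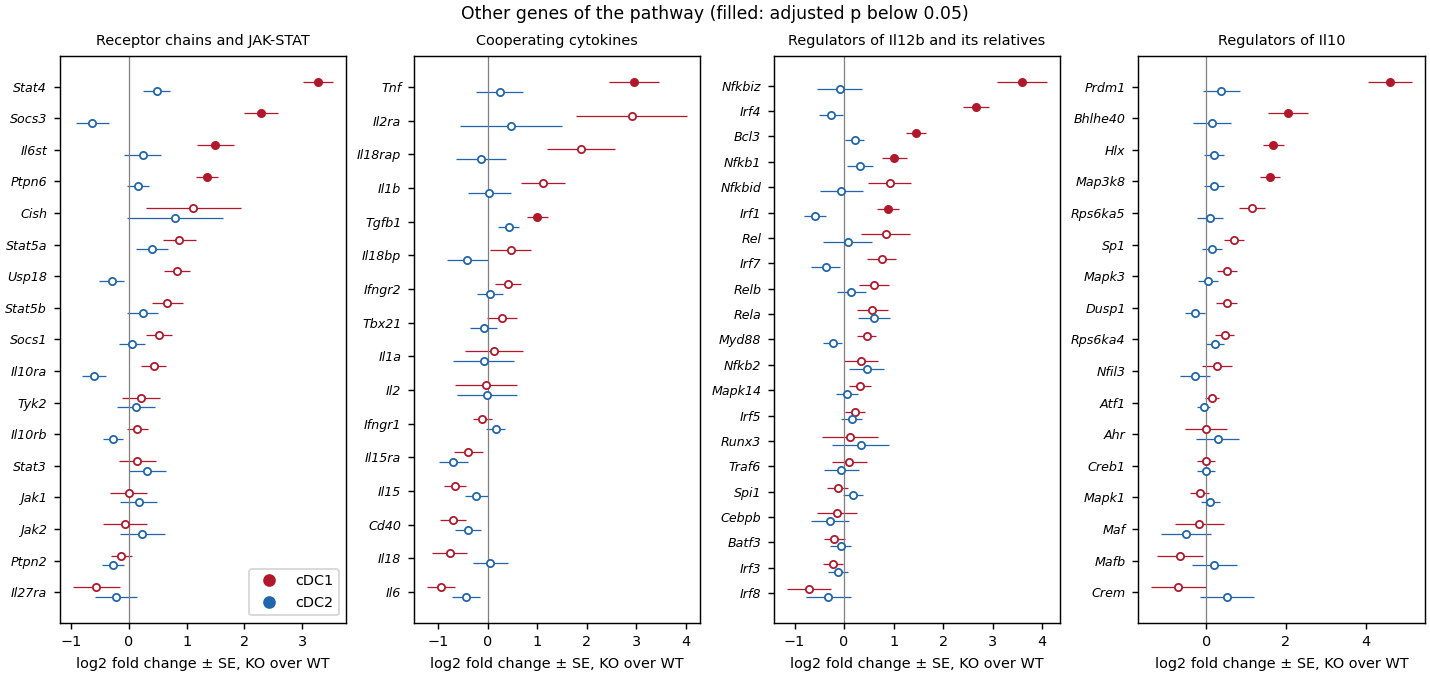
KO-over-WT log2 fold change ± SE in cDC1 (red) and cDC2 (blue) of tested genes of 4 lists around the IL-12 family; filled points have an adjusted p below 0.05 and genes run from the highest to the lowest cDC1 value. All filled points are in cDC1 and to the right of 0, led by Stat4, Tnf, Nfkbiz and Prdm1.

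Within replicates 2 and 3 the counts in the lists were larger, in a fit that called 24.9% of all genes higher in cDC1 KO. There 11 of 18 receptor and JAK-STAT genes, 5 of 15 cooperating cytokines, 14 of 21 regulators of Il12b and 11 of 18 regulators of Il10 rose. In the same fit 5 cooperating cytokines and 2 regulators of Il12b fell. In cDC2 that fit called 7.72% of all genes, and in the 4 lists, in the order above, 2, 1, 0 and 3 genes were higher and 4, 2, 3 and 1 lower. For the difference of the KO effects it called 38.3% of all genes, with 13, 4, 13 and 10 genes of the lists higher and 0, 3, 1 and 0 lower. With 1 library left out, the lowest counts of genes that rose were 3, 1, 3 and 3 in the 4 lists. Each was reached without cDC1 WT replicate 2 and without several other libraries. The highest were 7, 4, 12 and 7, each reached without cDC1 WT replicate 1 only, where 4 cooperating cytokines also fell.

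The genes near the family on their chromosomes were also read, a choice made after the values were seen. Within 100 kb of Il12rb1 lie 20 other genes, of which 14 were tested and 0 were called between cDC1 KO and cDC1 WT by edgeR's adjusted p. One neighbour each of Il23a (Timeless, 1.18) and Ebi3 (Adgre4, 4.16) rose in cDC1 KO, out of 9 and 10 tested. Of all tested genes 5.32% were called between the cDC1 genotypes and 3.6% rose, and the neighbours are too few to be set apart from that share. No tested neighbour of Il12b, Il27, Il12rb2 or Il10 was called between the cDC1 genotypes, although Il12b, Il12rb2 and Il10 had only 1 tested neighbour each.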

How the data were processed

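Conventional dendritic cells of 6 mouse pools gave 12 RNA libraries (poly(A) RNA, TruSeq preparation, per the labels' protocols). The authors deposited raw read counts per Entrez gene, made with featureCounts on GRCm38/mm10 per the submitters' processing notes. Versions, aligner and strand setting are not given in the sources used here. The 12 deposited files of single samples equalled the series-wide table. Genes without a RefSeq symbol held 2.23% of reads. Groups came from the labels.

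From these counts, CPM and RPKM (gene length as deposited beside the counts) were computed with TMM scaling (edgeR 4.0.16, limma 3.58.1, R 4.3.3). Tests were edgeR's quasi-likelihood F test on all 12 libraries with 4 group means, filterByExpr (13415 genes kept), robust dispersions and Benjamini-Hochberg adjustment over all genes tested. Genes with an adjusted p below 0.05 were called. Standard errors were taken as |log2 fold change| divided by the root of the F statistic. The fits were tested on simulated data. Count ratios have 95% exact intervals, and the limit for 0 reads is 3 reads. Pools pair the cDC1 and cDC2 libraries by label; residuals of paired libraries correlated at 0.259, 0.143 and 0.144 in KO and at -0.205, -0.111 and -0.068 in WT.

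The genes studied and the gene lists were chosen with earlier results of these data known. Named were all 8 genes, Zfp366, up to 4 genes per list by smallest p in each genotype comparison, and the 3 nearest profiles of each called gene. A few genes this rule picks, or that stand in the lists, are not reported here by name, though the counts include them. Alternatives were DESeq2 1.42.0, RLE scaling, other filters, length offsets, blocks, fewer groups and fewer libraries. Promoters came from RefSeq (GRCm38.p6) and exon overlaps from GENCODE M21.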

Additional observations from a re-analysis of the deposited data

How the results depend on the processing

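The 7 tested genes gave 35 log2 fold changes and 695 values under alternatives, of which 647 kept direction and side of the threshold, 5 lost the call, 14 gained it and 29 changed sign; the cause was not tested. Genes called over the whole table numbered 6438 (KO against WT in cDC1), 1039 (in cDC2), 6391 (WT subsets), 6620 (KO subsets) and 5157 (difference of the KO effects) within replicates 2 and 3. There, Il12b turned to 0.40 in cDC1 and 0.71 for the difference, Il10 to -0.18 between WT subsets and Il23a to -1.12 between KO subsets, while Ebi3 (0.55) and Il12rb2 (0.98) in cDC1, Il12rb2 between WT subsets (-1.12), and Ebi3 (1.04) and Il12rb2 (0.73) for the difference gained the call. DESeq2 called 1318 genes in cDC1 and 480 for the difference, and gained Il27 between KO subsets (2.19). With only the groups compared, 1537 (WT subsets) and 4172 (KO subsets) genes were called, and Il27 (2.18) and Il12rb2 (-0.54) were gained between KO subsets. With length offsets the difference had 302 genes, Ebi3 in cDC2 turned to 0.081, and Il12rb2 between WT subsets (-0.76) and Il27 between KO subsets (2.63) were gained.

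Title numbers did not pair KO with WT libraries: residuals correlated at 0.0237, -0.0674 and 0.106 in cDC1 and at -0.0508, -0.0469 and -0.055 in cDC2, and 2 of 12 libraries correlated best with their own number. The replicate block gave 733 genes in cDC1 and 193 for the difference, and turned Il10 in cDC2 to 0.25. The replicate block by mouse pool gave 116 genes for the difference, turned Il10 there to -0.47 and changed no call of the 7 genes.

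With 1 library left out, genes called ran from 318 to 3052 in cDC1 (without cDC1 WT replicates 2 and 1), from 1209 to 3382 between KO subsets and from 110 to 501 for the difference. In cDC1, Il12b ran from -1.14 to 0.42, Il12rb2 from 0.41 to 1.03 and Il10 from -0.14 to 0.89. In cDC2, Il12b ran from -0.48 to 0.24, Il23a from -1.83 to 0.11, Ebi3 from -0.38 to 0.12 and Il10 from -0.80 to 5.53. Between WT subsets, Il23a ran from -7.81 to -3.34, Il27 from -0.015 to 1.42, Il12rb2 from -1.09 to -0.48 and Il10 from -0.14 to 6.20. There, Il12rb2 gained the call without cDC1 WT replicate 1 (adjusted p = 0.00432) and Il10 without cDC2 WT replicate 2 (0.0475). Between KO subsets, Il23a ran from -0.67 to 0.71, Il27 from 2.00 to 2.44 and Ebi3 from 0.94 to 1.44. There, Il27 gained the call without cDC2 WT replicate 3 (adjusted p = 0.0116). For the difference, Il12b ran from -1.07 to 0.50, Il12rb2 from -0.048 to 0.57 and Il10 from -5.23 to 1.13. Counts in the lists under these settings were added after seeing the data. Il12a, Il23a, Il27, Il10 and Il12rb1 had few reads in some or all groups, so their folds are loosely fixed, and a low gene has no value where a stricter filter removed it.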
